A study of Homo sapiens with 8 samples.

Results

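The genes described are 10 members of the tumor necrosis factor (TNF) system. They comprise 5 ligands, namely TNFSF10 (TRAIL), TNF, LTA, TNFSF13B (BAFF) and TNFSF14 (LIGHT), and 5 receptors, namely TNFRSF10A, TNFRSF10B, TNFRSF10C, TNFRSF10D and FAS. They were taken by name from 19756 protein-coding genes on chromosomes 1 to 22 and X. Histone ChIP-seq peaks were compared over these genes in HL-60, an established human promyelocytic leukemia cell line that can mature towards granulocytes. The cells received 1 µM all-trans retinoic acid (ATRA) or, as control, the same volume of ethanol, the solvent of ATRA, over 4 days, and medium and agent were renewed midway. For H3K4me3, which mainly marks active promoters, and H3K27ac, which marks active promoters and enhancers, there were 2 replicates of each condition, 8 libraries in all.

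TNF superfamily ligands act as trimers that cluster receptors on the target cell. TRAIL and FAS ligand engage receptors with an intracellular death domain, which recruit FADD and caspase-8 and start apoptosis, whereas TNF, lymphotoxin, LIGHT and BAFF mainly signal through TRAF adaptors to NF-kB. In myeloid cells TNF and BAFF are secreted as inflammatory and B cell survival factors, and TNFSF10 is known to respond to retinoids and interferon in acute promyelocytic leukemia cells.

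The promoters of 3 ligands around which the results turn are printed as the 250 bases before the transcription start site (TSS), 5′ to 3′ in the direction of the gene, on the human build GRCh37 (hg19). The TNFSF10 stretch lies at chr3:172241266-172241515 on the minus strand and the TNF stretch at chr6:31543092-31543341 on the plus strand. The TNFSF13B stretch lies at chr13:108921727-108921976 on the plus strand. Capitals mark matches, on either strand, to TATAAA (the TATA box), AGGTCA (the core letters of sites for retinoic acid and other nuclear receptors), GAAANNGAA (the core of interferon response elements), TGAGTCA (AP-1) and GGGCGG (the GC box of Sp1), and no match overlapped another in these stretches.
TNFSF10: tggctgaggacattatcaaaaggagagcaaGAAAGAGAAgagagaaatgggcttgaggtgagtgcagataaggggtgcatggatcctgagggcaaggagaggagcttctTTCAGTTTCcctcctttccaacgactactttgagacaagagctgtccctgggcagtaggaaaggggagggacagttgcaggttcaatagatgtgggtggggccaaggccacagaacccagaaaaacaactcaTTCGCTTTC
TNF: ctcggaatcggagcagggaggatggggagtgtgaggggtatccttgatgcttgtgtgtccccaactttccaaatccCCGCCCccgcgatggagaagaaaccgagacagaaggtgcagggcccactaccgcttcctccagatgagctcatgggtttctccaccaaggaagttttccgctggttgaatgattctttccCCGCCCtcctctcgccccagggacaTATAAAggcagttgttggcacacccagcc
TNFSF13B: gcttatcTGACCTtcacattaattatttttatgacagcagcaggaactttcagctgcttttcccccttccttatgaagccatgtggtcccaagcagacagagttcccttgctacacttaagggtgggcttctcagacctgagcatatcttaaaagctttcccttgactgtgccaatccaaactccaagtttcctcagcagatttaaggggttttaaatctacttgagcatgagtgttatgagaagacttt
The TNFSF10 promoter held GAAANNGAA 3 times, at bases 220 to 212, 141 to 133 and 9 to 1 before the TSS. It was the 1 promoter of the 10 genes with a match to this motif, which was found in 6.26% of all 19756 promoters of the same length. The TNF promoter held TATAAA at bases 29 to 24 and GGGCGG at bases 174 to 169 and 54 to 49. These motifs were found in 9.83% and 50.9% of promoters, and each in 3 of the 10. AGGTCA, found in 11.3% of promoters, occurred in 3 of the 10. It lay at bases 243 to 238 of TNFSF13B, as its reverse complement, and also in the promoters of TNFSF14 and TNFRSF10A. TGAGTCA, found in 3.26% of promoters, matched none of the 10. These matches describe letters in these windows.

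A stretch downstream of TNFSF13B is printed as well, because it was under an H3K4me3 peak in both ATRA libraries and in neither control library. It is the central 300 bases, chr13:108967991-108968290 on the plus strand, of the 412 bp that the peaks of the ATRA replicates shared (chr13:108967935-108968346).
TNFSF13B downstream region: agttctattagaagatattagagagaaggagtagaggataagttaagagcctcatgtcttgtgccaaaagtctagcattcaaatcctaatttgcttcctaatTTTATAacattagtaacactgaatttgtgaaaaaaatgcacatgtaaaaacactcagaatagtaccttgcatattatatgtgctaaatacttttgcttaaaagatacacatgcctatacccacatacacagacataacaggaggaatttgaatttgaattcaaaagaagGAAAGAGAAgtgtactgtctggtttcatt
This stretch starts 7103 bp past the end of TNFSF13B, 45958 bp from the TSS of its protein-coding transcripts, where no gene is annotated. TATAAA matched as its reverse complement at positions 103 to 108 from the left end and GAAANNGAA at positions 272 to 280. In the central 300 bases of the 16258 H3K4me3 peaks of ATRA replicate 1, these motifs were found in 13.8% and 9.64%.

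The value compared was the length of DNA under peaks, in base pairs (bp), within a window of the gene body and 10 kb on each side. Peak files hold no read counts, so the depth of each library is unknown and no counting interval can be given. The H3K4me3 libraries had between 13241 and 16487 peaks over 47.7 to 63.2 Mb, and the H3K27ac libraries between 15457 and 39332 peaks over 28.8 to 86.1 Mb. For both marks the ATRA libraries covered more of the genome than the control libraries, by 0.22 on the log2 scale for H3K4me3 and by 0.87 for H3K27ac. Values are therefore also given scaled to each library's genome-wide length under peaks. Scaling lowered the median log2 ratio over all genes with a peak from 0.15 to -0.036 for H3K4me3 and from 0.45 to -0.14 for H3K27ac. Whether more cells carried a mark or each cell carried more of it cannot be told apart in bulk chromatin. Of 7 promyelocyte markers, 5 had their TSS under H3K4me3 in both ATRA libraries and 4 in both control libraries, with ELANE and AZU1 under no peak in any. Of 6 granulocyte markers, 4 had it in both ATRA libraries and 1 in both control libraries.

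To determine how the windows differed upon ATRA treatment, a gene was called longer under ATRA when both ATRA libraries lay above both control libraries, and shorter when both lay below. For H3K4me3, 2 of the 9 genes with a peak were longer, TNF and TNFSF13B, against 40.8% of 13518 protein-coding genes with a peak, and 1, TNFSF14, was shorter, against 3.85%. For H3K27ac, 4 of 10 were longer, TNF, LTA, TNFRSF10A and TNFRSF10B, against 41.5% of 14350 genes, and 0 were shorter, against 3.92%. The median log2 ratio of ATRA to control, with 1000 bp added to each mean, was 0.24 over the 9 genes for H3K4me3 and 0.61 over the 10 for H3K27ac, and after scaling it was 0.059 and, with the direction turned, -0.038. TNF and LTA lie side by side and share 18760 bp of window, 82.4% and 84.2% of their windows, so they are not separate observations. Counted as 1 locus, 3 of 9 were longer in H3K27ac, with a median of 0.55 (-0.095 scaled), and 2 of 8 in H3K4me3, with a median of 0.13 (-0.064 scaled). When libraries were compared within replicate numbers, 4 genes in place of 2 were longer in H3K4me3, LTA and TNFRSF10D being added, against 54.6% of all genes with a peak. In H3K27ac, 6 genes in place of 4 were then longer, TNFSF10 and TNFSF13B being added, against 59.4%. The smallest two-sided p that exact permutation allows for 2 against 2 unpaired libraries is 0.33, and pairing allows no smaller one. No p is therefore given, and every difference is described by its libraries.

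**Figure D1:**
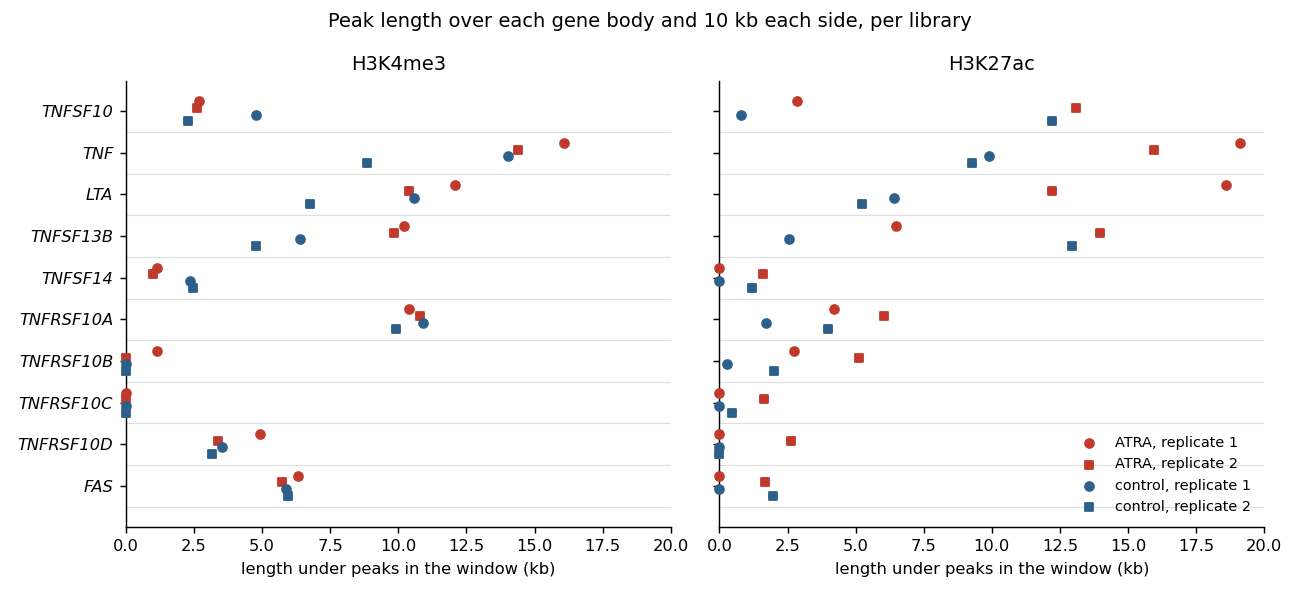
Length under H3K4me3 (left) and H3K27ac (right) peaks in kb within the window of each of the 10 genes, with 1 point per library, red for ATRA and blue for control, circles for replicate 1 and squares for replicate 2. The TNFSF13B points separate by condition in H3K4me3 but pair by replicate in H3K27ac, where both replicate 2 libraries lie above both replicate 1 libraries.

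The values by library showed differences between genes that were much larger than those between conditions, as the plot of window lengths shows. TNF, LTA, TNFSF13B, TNFRSF10A and FAS had between 4761 and 16094 bp under H3K4me3 in each library, whereas TNFRSF10B and TNFRSF10C had at most 1125 bp. The windows themselves differ in length, from 22271 bp for LTA to 77245 bp for TNFSF13B. In the plot of log2 ratios, scaling moved each gene with a peak in both conditions to the left, and the call was kept for TNFSF13B and TNFSF14 in H3K4me3 and for TNFRSF10B in H3K27ac. Scaled, 1 gene was longer and 3 were shorter in H3K4me3 (TNFSF10, TNFSF14 and TNFRSF10A), and 1 was longer and 0 shorter in H3K27ac, against 16.0% and 24.6% of all genes for the former mark and 17.7% and 25.5% for the latter.

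**Figure D2:**
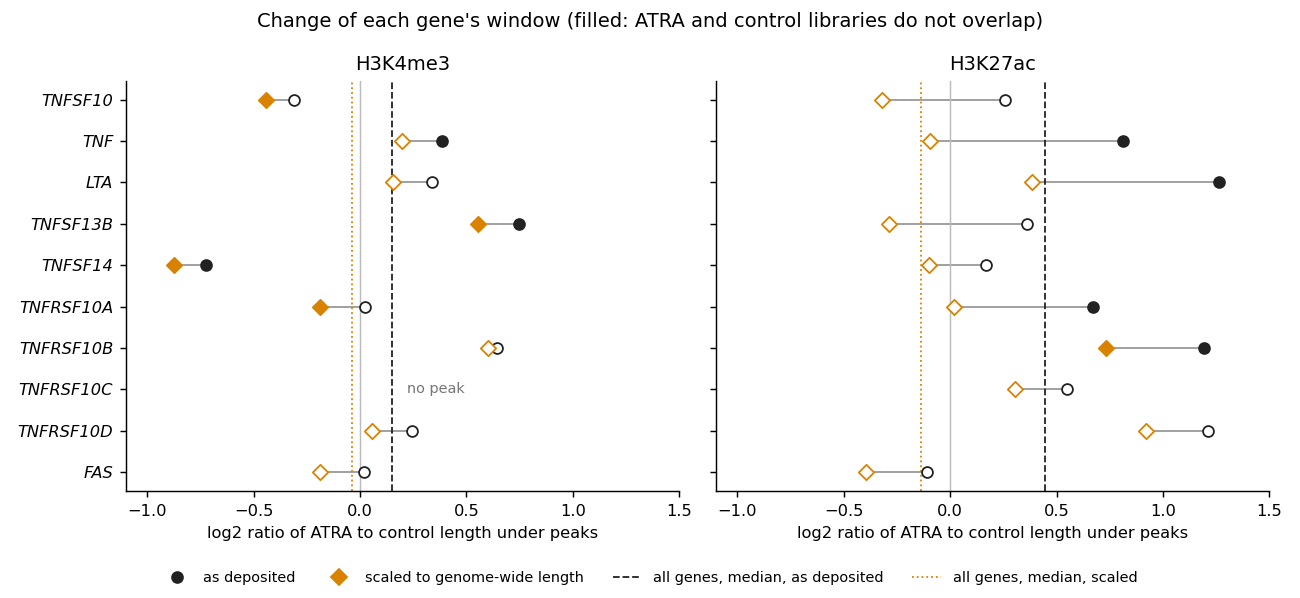
Log2 ratio of ATRA to control length under peaks for each gene, as deposited (black circles) and scaled to genome-wide length (orange diamonds), with vertical lines at the medians of all genes with a peak. Filled symbols mark genes whose ATRA and control libraries did not overlap, and TNFSF13B lies at 0.75 as deposited and 0.56 scaled in H3K4me3.

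Among the ligands, TNFSF13B, which encodes the B cell survival factor BAFF, had more H3K4me3 under ATRA (chr13:108903588-108960832, plus strand). Its window held 10198 and 9858 bp in ATRA replicates 1 and 2, and 6388 and 4761 bp in control replicates 1 and 2. The groups did not overlap, with means of 10028 ± 240.4 and 5575 ± 1150.5 bp (SD, n = 2). The log2 ratio was 0.75, at percentile 96.3 of all genes with a peak, and 0.56 after scaling. The promoter peaks reached further under ATRA, mainly on the upstream side. Over the TSS of the protein-coding transcripts, the peaks of both ATRA libraries began 4200 and 4368 bp upstream, and those of the control libraries 1074 and 465 bp upstream. The noncoding RNA gene ENSG00000277246, on the same strand, starts 2309 bp upstream of this TSS, within the stretch covered under ATRA. Which of the genes the upstream part belongs to was not tested. Control replicate 1 had a separate peak of 1089 bp within the stretch that the ATRA peaks covered without a break. On the downstream side they ended 5208 and 4970 bp past the TSS under ATRA and 4224 and 4295 bp past it in control cells. Restricting the peaks to a deposited -log10 q of at least 5 left 9409 and 9339 bp under ATRA against 6388 and 4761 bp. The 5′ end of the gene record lies 18389 bp upstream of this TSS, and no peak of either mark came within 2 kb of it in any library.

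H3K27ac over TNFSF13B differed more between replicate numbers than between conditions. The window held 6470 and 13985 bp under ATRA and 2538 and 12942 bp in control cells. Both replicate 2 libraries were high and both replicate 1 libraries low, and the ATRA library was the longer of each pair, with log2 ratios of 1.08 in replicate 1 and 0.10 in replicate 2. At the promoter, a single peak of 10348 bp in ATRA replicate 2 matched one of 10242 bp in control replicate 2. The stretch 3′ of the gene shown above differed more. Its H3K4me3 peaks measured 789 and 519 bp in the ATRA libraries, and neither control library had one. The H3K27ac peaks over it measured 2048 and 3191 bp under ATRA, 0 bp in control replicate 1 and 1715 bp in control replicate 2. The H3K4me3 peaks there had deposited -log10 q values of 1.03 and 1.24, below the stricter threshold.

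TNF, the prototype inflammatory cytokine of the family, and LTA, which encodes lymphotoxin alpha, lie 3511 bp apart by their TSS in the major histocompatibility region (chr6:31543342-31546113 and chr6:31539831-31542101, both plus strand). The TNF window held 16094 and 14396 bp of H3K4me3 under ATRA and 14042 and 8848 bp in control cells. The groups did not overlap, but the lower ATRA library lay just above the higher control library, and after scaling they overlapped. LTA held 12082 and 10384 bp against 10584 and 6741 bp, which overlapped, with log2 ratios of 0.38 for TNF and 0.34 for LTA.

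The peaks over this locus were joined under ATRA. In ATRA replicate 1, a single H3K4me3 peak of 20052 bp ran over LTA, TNF, LTB, LST1 and NCR3, and in replicate 2 a single peak of 17296 bp did so from 1624 bp upstream of the TNF TSS. Control replicate 1 had 2 peaks there, of 10584 and 6559 bp, and control replicate 2 had 3, of 4529, 2212 and 4514 bp. Thus the gaps between the control peaks were under a peak in both ATRA libraries. The TSS of TNF was under H3K4me3 in each of the 4 libraries, while that of LTA was under none.

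H3K27ac over TNF and LTA was longer under ATRA in both replicates. The TNF window held 19094 and 15970 bp under ATRA and 9883 and 9262 bp in control cells, that is 77.0% and 42.0% of the window on average. For LTA the lengths were 18593 and 12209 bp against 6417 and 5250 bp. Neither pair of groups overlapped, and the log2 ratios of 0.81 and 1.26 exceeded the all-gene median of 0.45. Within 2 kb of the LTA TSS, the lengths were 4001 and 2207 bp under ATRA and 1342 and 200 bp in control cells. The neighbor LTB, which encodes lymphotoxin beta, held 21109 and 16965 bp against 11715 and 12226 bp. The call depended on weak peaks. After scaling the groups overlapped for both genes, with log2 ratios of 0.38 for LTA and, with the direction turned, -0.095 for TNF. With peaks of a deposited -log10 q of at least 5, each window held 0 bp in both ATRA libraries. The control libraries then held 6417 and 533 bp, which turned the direction for both genes.

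**Figure D3:**
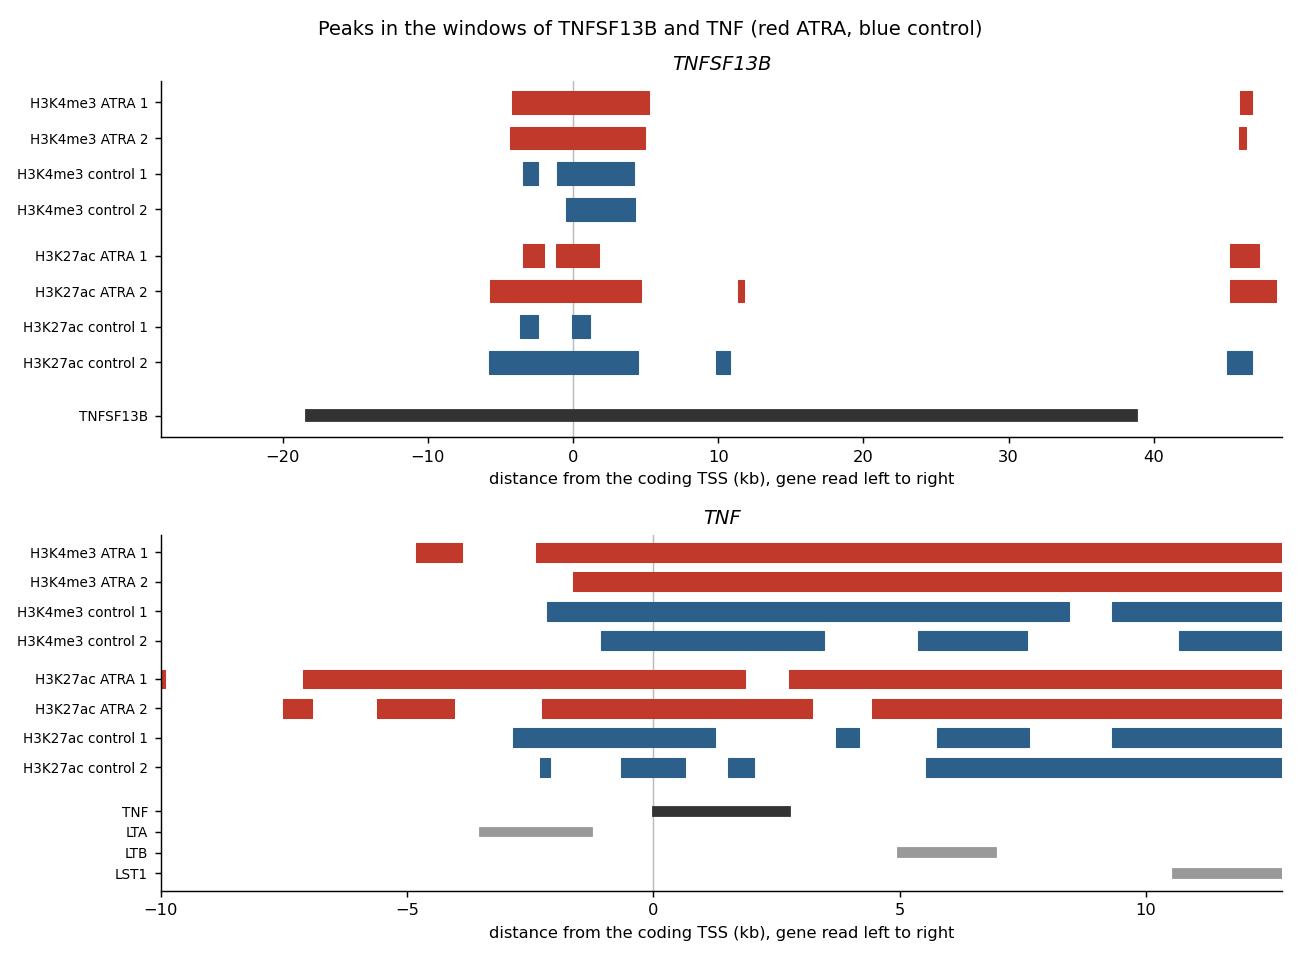
Peaks of each mark in each library over the TNFSF13B window (top) and the TNF window (bottom), as distance in kb from the coding TSS, with genes as dark (named gene) and gray (neighbor) bars and peaks cut at the window edges. In H3K4me3 the red ATRA peaks start 4200 and 4368 bp upstream of TNFSF13B, and downstream of the TNF TSS they have no gap where the blue control libraries have 1 or 2.

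TNFSF14, which encodes LIGHT, a ligand of the lymphotoxin beta receptor, was the gene with less H3K4me3 (chr19:6661264-6670599, minus strand). Its window held 1146 and 981 bp under ATRA and 2363 and 2453 bp in control cells. The ATRA libraries were both lower than the control libraries, with means of 1064 ± 117 and 2408 ± 63.6 bp (SD, n = 2). The log2 ratio of -0.72 lay at percentile 0.636 of all genes with a peak, and it was -0.88 after scaling. The peaks differed in place as well as in length. That of ATRA replicate 1 covered the TSS, that of ATRA replicate 2 began 629 bp past it, and the control peaks reached 1834 and 1922 bp into the gene. A further 613 bp in control replicate 1 lay upstream of the gene. Only 1 library of each condition kept a peak at a deposited -log10 q of at least 5, with 1146 bp under ATRA and 2363 bp in control cells, so the groups then overlapped. H3K27ac was present in replicate 2 alone, with 1609 bp under ATRA and 1211 bp in control cells, at different places in the window.

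TNFSF10, which encodes the death ligand TRAIL, had both marks at its promoter with and without ATRA (chr3:172223298-172241265, minus strand). Its window held 2668 and 2626 bp of H3K4me3 under ATRA and 4768 and 2264 bp in control cells. The ATRA libraries were nearly alike and lay between the control libraries, so the groups overlapped. The log2 ratio of the means was -0.31, with -0.65 in replicate 1 and 0.15 in replicate 2. After scaling both ATRA libraries were shorter, with 2461 and 2455 bp against 4642 and 2763 bp and a log2 ratio of -0.44. As deposited, without control replicate 1 both ATRA libraries were above the remaining control library, and without control replicate 2 both were below. The long peak of control replicate 1 ran from 1502 bp upstream to 3265 bp into the gene, over the stretch where the ATRA libraries had a promoter peak of 2298 and 2363 bp and a separate one of 370 and 263 bp. At a deposited -log10 q of at least 5, the promoter peaks of both ATRA libraries were lost and those of both control libraries were kept, with values of 4.88 and 3.64 against 5.11 and 7.31.

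H3K27ac over TNFSF10 also differed more by replicate number than by condition. The window held 2849 and 13091 bp under ATRA and 776 and 12217 bp in control cells, with log2 ratios of 1.12 in replicate 1 and 0.09 in replicate 2. The TSS, next to the printed sequence with the 3 interferon-type motifs, was under an H3K27ac peak in 3 libraries. In control replicate 1 the nearest peak, of 271 bp, ended 211 bp upstream of the TSS. That peak met the printed stretch only at its upstream end. A region between 5040 and 10496 bp upstream, with no annotated gene, carried 936 and 5457 bp under ATRA and 0 and 4524 bp in control cells. The 936 bp peak of ATRA replicate 1 was the part of this region absent from control replicate 1. Within the gene, ATRA replicate 2 and control replicate 2 each had H3K27ac peaks between 6761 and 13387 bp past the TSS, where ATRA replicate 1 had none and control replicate 1 had 505 bp.

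**Figure D4:**
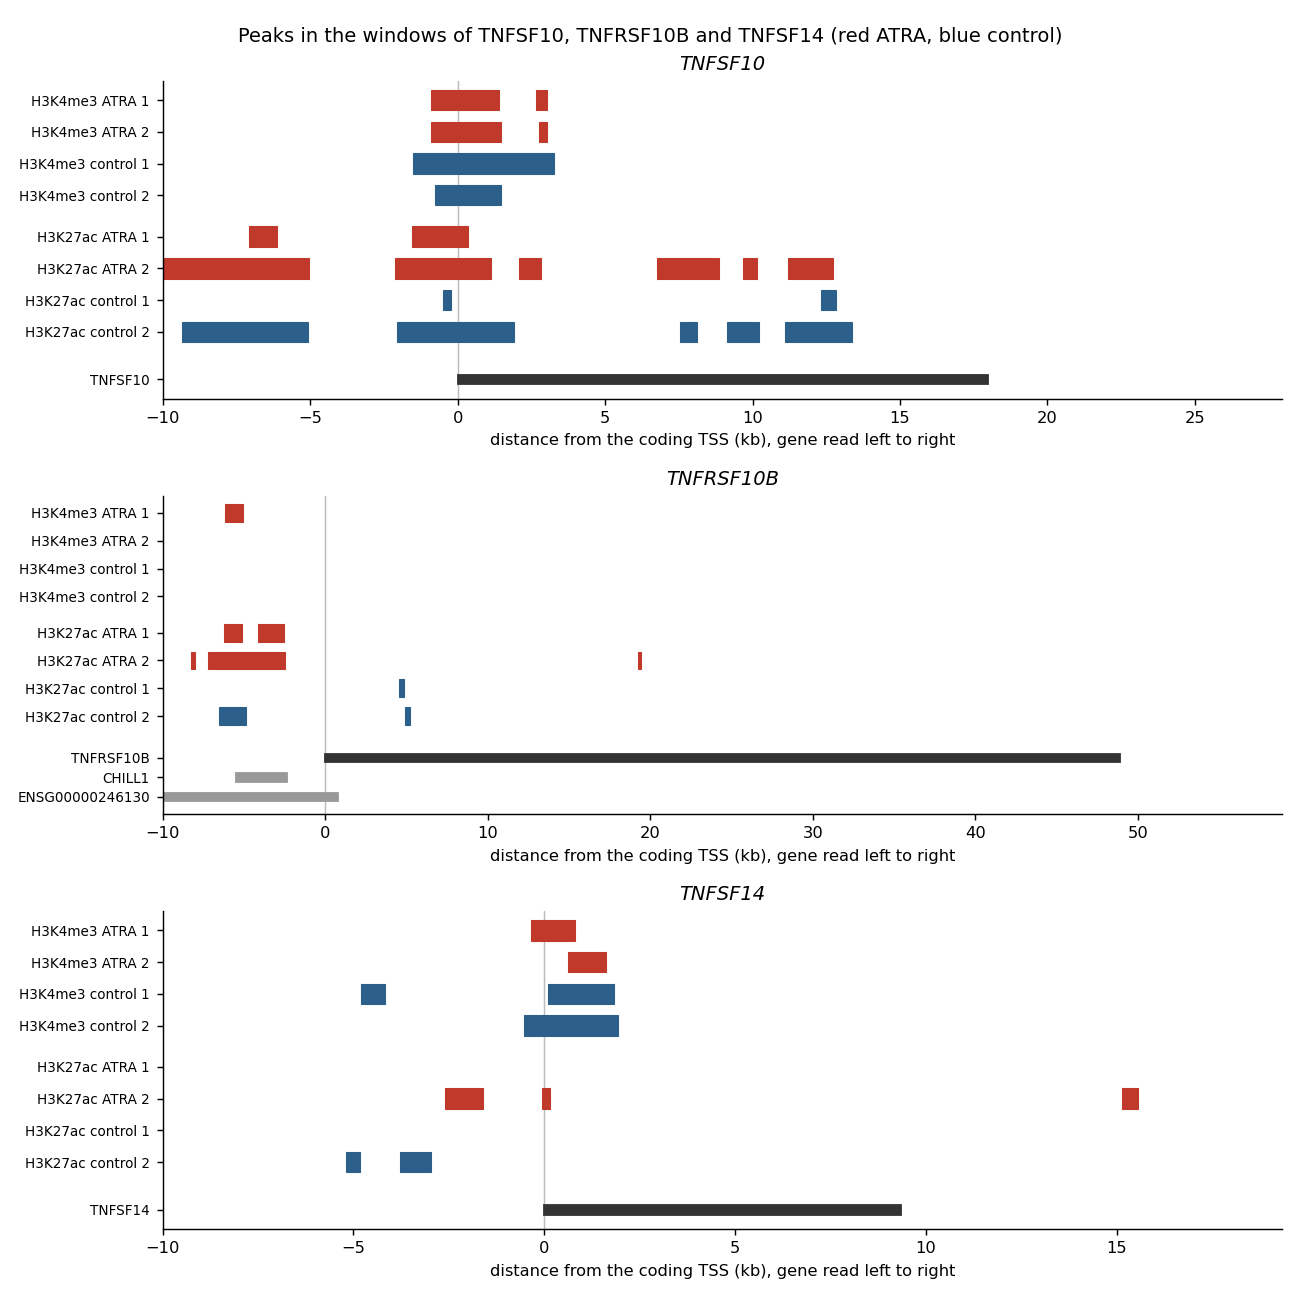
Peaks of each mark in each library over the windows of TNFSF10 (top), TNFRSF10B (middle) and TNFSF14 (bottom), as distance in kb from the TSS, with genes as dark bars, long noncoding RNAs as gray bars and peaks cut at the window edges. The H3K4me3 peak of control replicate 1 over TNFSF10 (4768 bp) is longer than the other 3, and TNFRSF10B has no peak at its TSS in any library.

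The 4 TRAIL receptors lie together on chromosome 8. TNFRSF10A encodes TRAIL-R1, a receptor with a death domain (chr8:23047965-23082615, minus strand). Its H3K4me3 was long and hardly differed, with 10381 and 10792 bp under ATRA and 10890 and 9912 bp in control cells. The groups overlapped with a log2 ratio of 0.02. The direction depended on the processing, since after scaling both ATRA libraries were shorter, with a log2 ratio of -0.19, whereas with a deposited -log10 q of at least 5 both were longer, with 10381 and 10792 bp against 9395 and 9687 bp. Its H3K27ac held 4190 and 6056 bp under ATRA and 1692 and 3988 bp in control cells. The groups did not overlap (log2 ratio of 0.67), but the lower ATRA and the higher control library were close, and scaling reduced the ratio to 0.02 with overlap. None of its H3K27ac peaks reached a deposited -log10 q of 5. The peak over the TSS measured between 1692 and 3233 bp in the 4 libraries. Peaks of 844 and 1710 bp, between 4476 and 6185 bp upstream of the TSS and over the divergent noncoding RNA TNFRSF10A-DT, were found in both ATRA libraries and in neither control library.

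TNFRSF10B, which encodes the death receptor TRAIL-R2, had no H3K4me3 or H3K27ac peak over its TSS in any of the 8 libraries (chr8:22877646-22926544, minus strand). The only H3K4me3 peak in its window, of 1125 bp, was in ATRA replicate 1. H3K27ac in the window measured 2719 and 5105 bp under ATRA and 292 and 2002 bp in control cells. The ATRA libraries were both longer, with a log2 ratio of 1.19, and remained so after scaling (0.73). The difference lay between 2493 and 7197 bp upstream of the TSS, over the noncoding RNAs CHILL1 and ENSG00000246130 (chr8:22929037-22933741). This region held 2719 and 4705 bp under ATRA, 0 bp in control replicate 1 and 1705 bp in control replicate 2. The gene body alone went the other way, with 0 and 200 bp under ATRA against 292 and 297 bp. These peaks were weak, and none in the window had a deposited -log10 q of 5 or more.

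TNFRSF10C and TNFRSF10D encode decoy receptors, which bind TRAIL without a working death domain. TNFRSF10C had no H3K4me3 peak in its window in any library and H3K27ac only in replicate 2, with 1627 bp under ATRA and 477 bp in control cells (chr8:22960434-22974958, plus strand). TNFRSF10D had an H3K4me3 peak over its TSS in each library, of 4919 and 3378 bp under ATRA and 3540 and 3165 bp in control cells (chr8:22993101-23021540, minus strand). The groups overlapped, with a log2 ratio of 0.24. H3K27ac was seen at TNFRSF10D only in ATRA replicate 2, where 2080 of 2633 bp covered the TSS.

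FAS, the receptor of FAS ligand, had an H3K4me3 peak over its TSS that was nearly the same in all libraries (chr10:90750414-90775542, plus strand). It measured 6308 and 5720 bp under ATRA and 5890 and 5948 bp in control cells, with a log2 ratio of 0.02. The peak also covers the 5′ end of ACTA2, which starts 682 bp away on the other strand. H3K27ac was present in both replicate 2 libraries, with 1668 bp under ATRA and 1960 bp in control cells, and in neither replicate 1 library.

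To compare the marks at the start of the genes, peaks over the TSS of the protein-coding transcripts were counted. H3K4me3 lay over the TSS in 4 of 4 libraries at TNFSF10, TNF, TNFSF13B, TNFRSF10A, TNFRSF10D and FAS, in 2 at TNFSF14 and in 0 at LTA, TNFRSF10B and TNFRSF10C. The death receptors of TRAIL were thus unlike, with the TSS of TNFRSF10A marked in every library and that of TNFRSF10B in none. Of the 6 genes, 3 (TNF, TNFSF13B and TNFRSF10A) also had H3K27ac over the TSS in all 4 libraries, against 37.1% of the 9471 genes with H3K4me3 at the TSS throughout. TNFSF10 had H3K27ac in 3 libraries, FAS in 2 and TNFRSF10D in 1.

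Peaks found in both replicates of a condition were also sorted by whether they met a peak found in both replicates of the other condition by at least 1 bp. In the 10 windows, 1 H3K4me3 peak was ATRA-specific and 0 were control-specific, and 8 ATRA peaks overlapped 9 control peaks. The ATRA-specific peak was that downstream of TNFSF13B. Genome-wide, 14.4% of the 13753 ATRA peaks and 3.01% of the 12035 control peaks of this mark were specific. For H3K27ac, 6 peaks were ATRA-specific and 1 was control-specific, with median lengths of 1103.5 and 505 bp, and 7 overlapped in each condition. Genome-wide, 49.7% of the 20578 ATRA peaks and 14.0% of the 12937 control peaks were specific, so these counts are near the background. For both marks the authors report more peaks in control than in ATRA cells, the opposite order. The reason for this difference was not tested. The 6 ATRA-specific H3K27ac peaks lay upstream of TNFSF10 (936 bp), downstream of TNFSF13B (2048 bp), upstream of TNFRSF10B (1596 and 1123 bp) and in the window of TNFRSF10A (1084 and 844 bp). The peaks of 1596 bp at TNFRSF10B and 844 bp at TNFRSF10A met no peak in either control library, and each of the other 4 met a peak in 1 control library. The control-specific peak, of 505 bp, lay within TNFSF10 and met a peak in 1 ATRA library. Except for the stretch downstream of TNFSF13B, no H3K4me3 peak of the 10 windows was restricted to both libraries of 1 condition.

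Other genes of the TNF system were then examined in 4 lists. Of all genes with a peak, 40.8% were longer and 3.85% shorter in H3K4me3, and 41.5% and 3.92% in H3K27ac. After scaling these shares were 16.0% and 24.6% in H3K4me3, and 17.7% and 25.5% in H3K27ac. Of 12 other TNF superfamily ligands, 8 had a peak of each mark, with 2 longer and 0 shorter in H3K4me3 and 6 longer and 0 shorter in H3K27ac, at medians of 0.10 and 1.08. Scaled, 1 and 2 were longer and 0 shorter, at medians of 0.026 and 0.60. TNFSF12 and TNFSF13 are neighbors with the same H3K27ac lengths, 4801 and 6963 bp under ATRA against 427 and 4066 bp. Each has the median ratio of 1.08, and LTB lies in the TNF window, so the counts include genes that are not separate observations. The same holds for neighbors with shared windows in the other lists, such as CASP8, CASP10 and CFLAR, or BIRC2 and BIRC3. TNFSF9, which encodes the ligand of 4-1BB, held 6532 and 4792 bp of H3K4me3 under ATRA and 2977 and 1442 bp in control cells. Its H3K27ac measured 6569 and 5261 bp under ATRA against 0 and 1289 bp, a log2 ratio of 2.07. TNFSF9 was thus longer in both marks, also after scaling. FASLG, which encodes FAS ligand, had at most 370 bp of H3K4me3 and no peak of either mark over its TSS. Its window held 584 and 1885 bp of H3K27ac under ATRA against 0 and 561 bp, a log2 ratio of 0.80 that overlapped after scaling, and it was named after its values were seen.

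Of 19 other TNF receptors, 14 had an H3K4me3 peak and 12 an H3K27ac peak, with 5 and 9 longer and 0 shorter in either mark, at medians of 0.13 and 0.90. The shares of all genes that were longer were 40.8% in H3K4me3 and 41.5% in H3K27ac. Scaled, 5 were longer and 2 shorter in H3K4me3 and 4 longer and 0 shorter in H3K27ac, at medians of -0.044 and 0.30. TNFRSF1B, which encodes TNF receptor 2, held 13450 and 12261 bp of H3K4me3 under ATRA and 7566 and 5048 bp in control cells (log2 ratio of 0.92, and 0.74 scaled). TNFRSF1A, which encodes the death domain receptor of TNF, held 13699 and 13446 bp against 12266 and 9018 bp, a smaller difference (0.32). In H3K27ac, LTBR, which encodes the lymphotoxin beta receptor, held 23690 and 19555 bp against 3684 and 8196 bp. TNFRSF9, which encodes 4-1BB, the receptor of TNFSF9, held 6278 and 7656 bp against 0 and 613 bp, the largest log2 ratio of the list at 2.61. These calls, each for the mark named, were kept after scaling.

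The 13 genes of the death-inducing complex and the caspases all had both marks in their windows. Beside the counts below, 40.8% of all genes were longer in H3K4me3 and 41.5% in H3K27ac as deposited, and 16.0% and 17.7% scaled. In H3K4me3, 6 were longer and 0 shorter, with a median log2 ratio of 0.22, and after scaling 0 were longer and 2 shorter, with a median of 0.035. CASP8, the initiator caspase downstream of the TRAIL receptors and FAS, held 15245 and 14116 bp under ATRA and 12587 and 11074 bp in control cells, a log2 ratio of 0.29. In H3K27ac, 5 were longer and 0 shorter, with a median of 0.73, and after scaling 1 was longer and 0 shorter, with a median of 0.091. TRADD, the adaptor of TNF receptor 1, held 1266 and 2627 bp under ATRA and 0 bp in both control libraries, and it was the 1 gene of the list still longer after scaling.

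Of 21 genes that carry signals from TNF receptors to NF-kB and necroptosis, 9 were longer in H3K4me3 and 0 shorter, and 12 were longer in H3K27ac and 1 shorter, at medians of 0.16 and 0.62. Scaled, 4 were longer and 6 shorter in H3K4me3 and 3 longer and 6 shorter in H3K27ac, at medians of -0.012 and 0.018. REL, an NF-kB subunit, held 9741 and 8631 bp of H3K4me3 against 6616 and 5597 bp. BIRC3, which encodes the ubiquitin ligase cIAP2, held 9244 and 8105 bp against 6841 and 5725 bp. RIPK3, the kinase of necroptosis, held 7419 and 7487 bp of H3K27ac under ATRA against 0 and 1744 bp. Its TSS was under no peak of either mark in any library. TRAF1, an adaptor that binds TNF receptor 2, was the 1 shorter gene, with 12744 and 14288 bp of H3K27ac under ATRA against 19294 and 21004 bp in control cells (log2 ratio of -0.54, and -1.46 scaled). These 4 calls, each for the mark named, were kept after scaling, whereas H3K27ac over REL turned from longer (0.51) to shorter (-0.25). Over the pathway genes plotted, the H3K4me3 medians of the 4 lists lay on both sides of the all-gene median of 0.15. In H3K27ac each list median lay above the all-gene median of 0.45. Scaled, these medians lay between 0.018 and 0.60, against -0.14 for all genes. The lists were chosen with earlier results of these data known. The shares called in each list are to be read against the percentages of all genes above. As deposited these were 40.8% longer in H3K4me3 and 41.5% longer in H3K27ac.

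**Figure D5:**
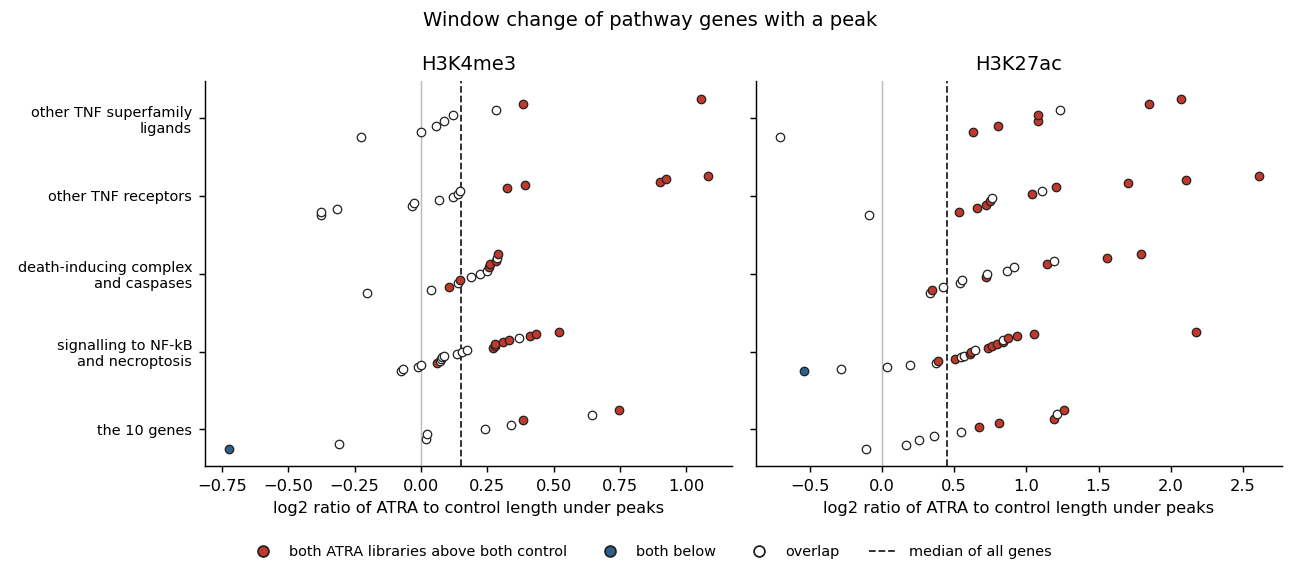
Log2 ratio of ATRA to control length under H3K4me3 (left) and H3K27ac (right) peaks for each gene with a peak in 4 lists of the TNF system and for the 10 genes, with the median of all genes as a dashed line. Red points have both ATRA libraries above both control libraries and blue points have both below, and the blue point among the NF-kB and necroptosis genes is TRAF1 in H3K27ac.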

How the data were processed

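The authors removed adapters, used Bowtie to align the ChIP-seq reads to hg19, and ran the broad peak call of MACS2 on each library by itself, without a fragment model. Genomic DNA was sequenced as input, and whether the peak call used it, like the tool versions, is not given in the sources used here. The deposited files give peak positions and a -log10 q value per peak, which was used only as a filter (at least 5). The fold enrichment and -log10 p columns held values these measures cannot take and were not used. Genes came from GENCODE release 44 mapped to GRCh37, in which 0 peaks ran past a chromosome end.

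Length under peaks was summed over the gene body and 10 kb each side, and within 2 kb of the TSS, and the replicate means, each with 1000 bp added as pseudocount, gave the log2 ratio. Scaled values divide each library by its genome-wide length under peaks relative to the mean of its mark. Background shares use genes with a peak in at least 1 library. Nothing in the labels says whether replicates came from separate cultures, so the spread may be technical. The members, lists and motifs were chosen with earlier results of these data known. Named genes were the 10 members and, for each list and mark, up to 3 genes with the largest non-overlapping change and up to 3 with the longest peaks, of which a part is given. Some items that the work covered are not reported here. In the peak names, equal replicate numbers carry the same tag, and the deviations of such libraries from the condition means correlated over genes (r = 0.235 for H3K4me3 and 0.491 for H3K27ac), so the libraries were taken as paired by number. Scripts in Python 3.11.15 with numpy 2.4.6 and matplotlib 3.10.9 were tested on simulated peaks.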

Additional observations from a re-analysis of the deposited data

How the results depend on the processing

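The values rest on 2 libraries per condition of unknown depth, and H3K27ac covered more of the genome in both ATRA libraries and in both replicate 2 libraries. The cause of each change below was not tested, beyond what the setting itself removes. Of 128 values under alternative settings, 64 stayed within the spread between replicates or within 1.5 times the count, and 64 moved. With a library left out, fewer libraries have to separate, so counts of longer and shorter genes are not given for that setting. Specific peaks of its condition then need not recur in both replicates. Shares over all genes were computed only as deposited, scaled and within replicate numbers, so the other counts have no background beside them.

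For H3K4me3, the median log2 ratio in the window over all 10 genes was 0.13. It was 0.16 with a pseudocount of 100 bp, 0.029 scaled to genome-wide length, 0.078 with a -log10 q of at least 5, and 0 for the gene body alone and for the number of peaks. Without each library in turn it was between 0.0042 and 0.26. Within 2 kb of the 5′ end of the gene record, taken as the TSS in these medians, it was 0, and -0.14 scaled. TNFRSF10A and FAS filled this stretch (4001 bp) in every library, and TNFRSF10B and TNFRSF10C held 0 bp in every library. TNFSF13B also held 0 bp there, with a log2 ratio of 0.41 at its coding TSS. With these genes fixed at 0, the unscaled median could hardly differ from 0 and does not measure a change. The count of 2 longer genes was 1 when scaled and in windows of 50 kb each side, TNFSF13B in both settings. By number of peaks it was also 1, but the gene was TNFSF10. The count of 1 shorter gene was 3 scaled and 2 for the gene body alone. In place of TNFSF14, the 1 shorter gene was TNFSF10 with the stricter -log10 q and TNFRSF10A by number of peaks. The 1 ATRA-specific peak became 0 with the stricter -log10 q and with equal peak numbers, 4 with a reciprocal overlap of 50%, 2 with replicate 2 peaks kept and 3 with 50 kb each side, and was between 1 and 3 without each library (3 without ATRA replicate 2 and 2 without control replicate 1). The 0 control-specific peaks became 1 with the stricter -log10 q and 2 with the reciprocal overlap, and were between 0 and 2 without each library (2 without control replicate 2).

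For H3K27ac, the median in the window of 0.61 was 0.85 with a pseudocount of 100 bp, -0.038 scaled, 0 with the stricter -log10 q, 0.14 for the gene body alone, 1.08 with 50 kb each side, 0.26 by number of peaks and 0.21 with equal peak numbers, and between -0.11 (without ATRA replicate 2) and 1.17 (without control replicate 2). Within 2 kb of the TSS, the median of 0.28 was 0 both scaled and with the stricter -log10 q, and between 0 and 0.56 without each library (0 without ATRA replicate 2). The 4 longer genes became 1 scaled, for the gene body alone and by number of peaks, 0 with the stricter -log10 q and 7 with 50 kb each side, and were between 4 and 9 without each library (9 without ATRA replicate 1). The 0 shorter genes became 2, TNF and LTA, with the stricter -log10 q and 1, TNFRSF10B, for the gene body alone. The 6 ATRA-specific peaks became 1 with the stricter -log10 q, 13 with 50 kb each side and 3 with equal peak numbers, and were between 2 (without control replicate 1) and 22 (without ATRA replicate 1). The 1 control-specific peak became 0 with the stricter -log10 q and 2 with 50 kb each side, and was between 0 (without ATRA replicate 1) and 10 (without control replicate 1), with 2 without control replicate 2.

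With the replicate block, that is within paired replicate numbers, the H3K4me3 median was 0.13 in the window and 0 at the TSS, with 4 longer and 1 shorter genes, and the H3K27ac medians were 0.66 and 0.30, with 6 longer and 0 shorter genes. Apart from counts with a library left out, no other count moved by over 1.5 times. Equal peak numbers (the longest peaks of each library) and the 5′-most TSS of the protein-coding transcripts were alternatives chosen after seeing the data.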

Other observations

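On chromosome 19, 3 TNF ligand genes lie in a row, TNFSF9 (6531037 to 6535935), CD70 (6583194 to 6604114) and TNFSF14 (6661264 to 6670599). In H3K27ac, TNFSF9 and CD70 were longer under ATRA, CD70 with 1030 and 4167 bp against 0 bp in both control libraries, whereas TNFSF14 had 0 and 1609 bp against 0 and 1211 bp. In H3K4me3, TNFSF9 was longer (log2 ratio of 1.05), CD70 overlapped with 2984 and 2119 bp against 2865 and 977 bp, and TNFSF14 was shorter (-0.72). The 3 neighboring windows thus had different calls in the same libraries.

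On chromosome 1, the adjacent receptor genes TNFRSF8 and TNFRSF1B also differed. TNFRSF8, which encodes CD30, held 5208 and 7879 bp of H3K4me3 under ATRA against 9443 and 7324 bp, with overlap, and was shorter after scaling (-0.51), while TNFRSF1B was longer by 0.92 and, after scaling, by 0.74. In H3K27ac, TNFRSF8 held 23661 and 19970 bp against 11746 and 13360 bp, and TNFRSF1B held 39324 and 22713 bp against 18893 and 6938 bp. The TSS of TNFRSF1B was under H3K27ac in both ATRA libraries and in neither control library, while that of TNFRSF8 was under it in 1 library of each condition. Both H3K27ac calls were lost after scaling. The decoy receptor gene TNFRSF6B, whose product binds FAS ligand and LIGHT, held 5804 and 2808 bp of H3K27ac under ATRA against 267 and 200 bp. The log2 ratios were 2.10 and 1.73 scaled. Its H3K4me3 overlapped between conditions at 4183 to 4576 bp and was shorter under ATRA after scaling (-0.22). The TSS of TNFRSF6B was under H3K27ac in 1 ATRA library and under H3K4me3 in no library.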
